A study of Homo sapiens with 8 samples.

Results

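The miR-183 cluster is a group of 3 microRNA (miRNA) hairpins, miR-183, miR-96 and miR-182. It was followed here through 4 mature products chosen by name, hsa-miR-183-5p, hsa-miR-183-3p, hsa-miR-96-5p and hsa-miR-182-5p, out of 2575 mature miRNA names counted. All 4 were present in every library and all 4 passed the filter on low counts, which 480 names passed in all. Small RNA of HCT116, a human colorectal cancer cell line, had been sequenced from 8 libraries grown adherently, at passage 16 to 19. For 4 of them, HCT116 cells were kept for 6 hours with 500 bacteria per cell (multiplicity of infection) of ETBF, the enterotoxigenic form of the gut bacterium Bacteroides fragilis, whose secreted toxin is a metalloprotease. The 4 control libraries came from HCT116 cells given the bacterial medium without ETBF, whose titles call them untreated.

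The 3 hairpins are transcribed as 1 primary transcript, from which the enzymes Drosha and Dicer cut the mature miRNAs. The cluster is best known from sensory organs, where it marks hair cells and photoreceptors, and changes in the miR-96 seed cause hereditary hearing loss. In colorectal and other carcinomas its members are often raised. MiR-96-5p and miR-182-5p repress FOXO transcription factors, which restrain growth and survival signals, and miR-183-5p represses the cytoskeletal linker ezrin and the transcription factor EGR1. A miRNA finds its targets mainly through the seed, bases 2 to 8 counted from 1 at its 5′ end.

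The mature sequences are shown to compare the seeds, which stand in capitals, 5′ to 3′ as RefSeq gives them on GRCh38.p14.
hsa-miR-183-5p: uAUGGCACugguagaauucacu
hsa-miR-96-5p: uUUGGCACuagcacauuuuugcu
hsa-miR-182-5p: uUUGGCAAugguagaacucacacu
hsa-miR-183-3p: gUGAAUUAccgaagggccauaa
Set against the seed of miR-96-5p, that of miR-182-5p had the change C8A and that of miR-183-5p the change U2A. The 3 major products therefore had 3 different, closely related seeds. Compared from base 1 without gaps, miR-182-5p and miR-183-5p were identical at 18 of 22 bases, while miR-96-5p shared 12 of 23 bases with miR-182-5p and 13 of 22 bases with miR-183-5p. Among the 2370 human mature names in the sequence table, only hsa-miR-1271-5p had the seed of a member, that of miR-96-5p.

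The mature products of the cluster lay on the minus strand of chromosome 7, between 129770406 and 129774988 on GRCh38.p14, a span of 4583 bases. The products of miR-183 and miR-96 were 166 bases apart, and those of miR-96 and miR-182 were 4226 bases apart. In the GENCODE 29 annotation of GRCh38 the span overlapped no gene other than MIR183, MIR96 and MIR182, and the nearest protein-coding genes were NRF1 at lower and UBE2H at higher coordinates. The hairpin of miR-182 is shown because the balance of its arms is reported further on, with the 5p and then the 3p arm in capitals.
MIR182 hairpin: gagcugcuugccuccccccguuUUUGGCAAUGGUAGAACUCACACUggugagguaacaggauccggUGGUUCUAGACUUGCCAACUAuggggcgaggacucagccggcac

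ETBF libraries were shallower, with totals of 2591655 to 4706156 counts, against 5243400 to 6522542 counts in control libraries. Across the 480 tested miRNAs, 34.4% passed the edgeR quasi-likelihood test after Benjamini-Hochberg adjustment at 0.05, 19.8% as higher and 14.6% as lower with ETBF. With upper-quartile scaling in place of TMM, which is the scaling used throughout, the split was 71 higher and 89 lower, against 95 higher and 70 lower. Epithelial markers, the miR-200 family with miR-192-5p and miR-194-5p, were all present in both groups, with summed levels of 23730 to 26686 CPM (TMM-normalised counts relative to library size) in ETBF libraries and 27884 to 29742 CPM in control libraries, and 4 of 7 were called lower. Of 4 tested entries that resemble other RNA classes, a sign of RNA quality, 4 were called higher, and the 5 listed summed to 191 to 603 CPM with ETBF, against 44.7 to 172 CPM in controls. Summed blood and endothelial markers were at 1072 to 1303 CPM in ETBF libraries and 1478 to 1665 CPM in controls, mostly from miR-126-3p, and of the 5 tested, 1 was called higher and 1 lower. Stromal and muscle markers summed to 228 to 282 CPM in ETBF libraries and 257 to 270 CPM in controls. The 3 neuronal and liver markers summed to 7537 to 9615 CPM in ETBF libraries and 7795 to 9793 CPM in controls, nearly all of it miR-9-5p, and miR-124-3p was at 0 counts in every library. The part of RNA quality and depth in the results on the cluster was not tested beyond the values given with each.

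The cluster was abundant in HCT116 cells and stayed close to its control level after 6 hours with ETBF. Of the 4 members, 0 passed the test with edgeR, beside 34.4% of all tested miRNAs, and 0 had an unadjusted p under 0.05, beside 43.5% of all; DESeq2 and limma-voom also called 0. The ETBF and control levels of all 4 overlapped, whereas the groups did not overlap for 33.8% of all tested miRNAs. For the 3 major products the 95% intervals of the log2 fold change lay within 0.32 of 0 in both directions, which held for 14.4% of all tested miRNAs. That share covers abundant and rare miRNAs together. Among the miRNAs ranked 1 to 8 in abundance, miR-21-5p, miR-7-5p, let-7f-5p, let-7g-5p and let-7i-5p met the same bound. MiR-100-5p, let-7a-5p and miR-26a-5p did not. These are bulk libraries, so fewer cells that make a miRNA and less of it per cell cannot be told apart.

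**Figure D1:**
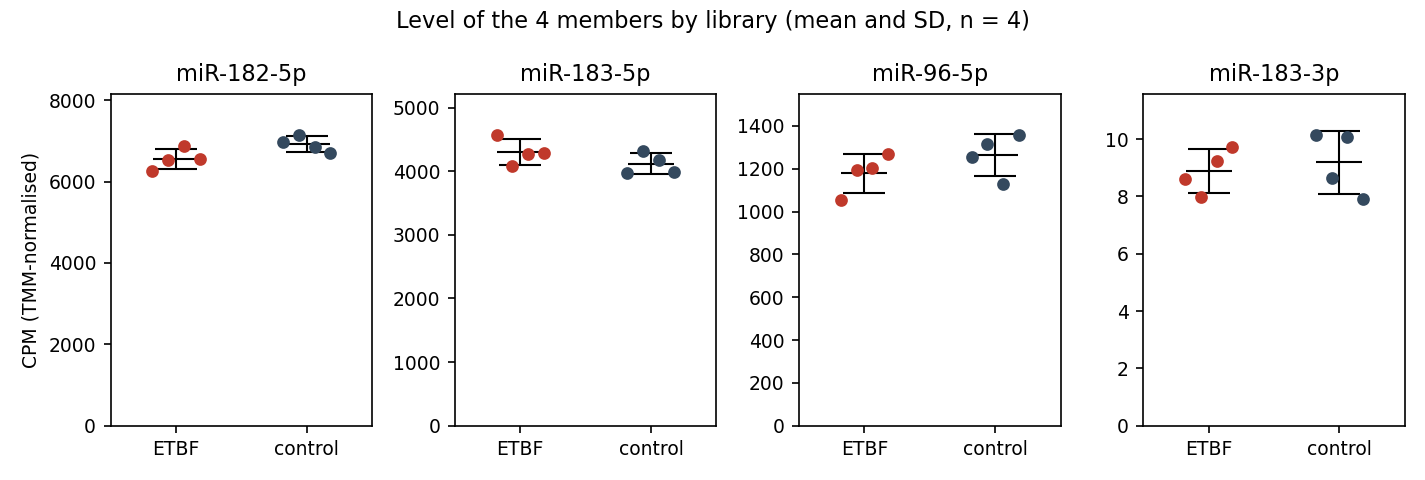
TMM-normalised CPM (vertical axis, from 0) of each member in the 4 ETBF libraries and the 4 control libraries; points are libraries, the horizontal marks the mean and the bars the SD. The points of the groups overlap in each panel, and miR-183-3p averages 8.89 CPM with ETBF where miR-182-5p averages 6556 CPM.

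MiR-182-5p, whose targets include FOXO3, was the most abundant member and ranked 21 among the 480 tested miRNAs. It had 29184, 27806, 26752 and 17496 counts in ETBF replicates 1 to 4 and 35123, 40568, 36042 and 44963 counts in control replicates 1 to 4. As levels these were 6272, 6534, 6871 and 6548 CPM with ETBF, against 6984, 7144, 6852 and 6706 CPM in controls. The highest ETBF library, replicate 3, stood above 2 of the controls, so the groups overlapped. The mean level was 6556 ± 245 CPM in ETBF libraries and 6921 ± 187 CPM in control libraries (SD, n = 4 each), a log2 fold change of -0.078 (SE 0.061, edgeR adjusted p = 0.355). The 95% interval of the log2 fold change ran from -0.21 to 0.051. At that level and with TMM scaling, the data exclude a fall of more than 1.15-fold and a rise of more than 1.04-fold. Other scalings, given below, allowed a fall of up to 1.246-fold and a rise of up to 1.08-fold.

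MiR-183-5p, the repressor of ezrin and EGR1, ranked 31. Its counts were 21259, 17358, 16642 and 11441 in ETBF replicates 1 to 4 and 20010, 24539, 22004 and 26685 in control replicates 1 to 4. Its levels were 4569, 4079, 4274 and 4282 CPM with ETBF, against 3979, 4321, 4183 and 3980 CPM in controls. Only ETBF replicate 1 lay above all 4 controls. The mean level was 4301 ± 202 CPM in ETBF libraries and 4116 ± 167 CPM in control libraries (SD, n = 4 each). The log2 fold change was 0.063 (SE 0.064, edgeR adjusted p = 0.486), with a 95% interval from -0.072 to 0.20. With TMM scaling this excludes a fall of more than 1.05-fold and a rise of more than 1.15-fold. The sign depended on the scaling: it was -0.021 with upper-quartile scaling.

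MiR-96-5p, the product in which seed changes cause deafness, ranked 54. It had 4900, 5075, 4691 and 3390 counts in ETBF replicates 1 to 4 and 6303, 7470, 5941 and 9104 counts in control replicates 1 to 4. Its levels were 1053, 1193, 1205 and 1269 CPM with ETBF, against 1253, 1316, 1129 and 1358 CPM in controls. The lowest library was ETBF replicate 1 and the highest was control replicate 4, with the rest intermingled. The mean level was 1180 ± 90.9 CPM in ETBF libraries and 1264 ± 99.5 CPM in control libraries (SD, n = 4 each), a log2 fold change of -0.10 (SE 0.079, edgeR adjusted p = 0.363). Its 95% interval, from -0.27 to 0.067, excludes with TMM scaling a fall of more than 1.20-fold and a rise of more than 1.05-fold.

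MiR-183-3p, the minor arm of the miR-183 hairpin, was far rarer, at rank 304. Its counts were 40, 34, 36 and 26 in ETBF replicates 1 to 4 and 51, 49, 53 and 53 in control replicates 1 to 4. These corresponded to 8.60, 7.99, 9.25 and 9.73 CPM with ETBF, against 10.1, 8.63, 10.1 and 7.90 CPM in controls. The lowest level was that of control replicate 4, just under ETBF replicate 2, and the groups overlapped over most of their range. The mean level was 8.89 ± 0.760 CPM in ETBF libraries and 9.19 ± 1.10 CPM in control libraries (SD, n = 4 each), with a log2 fold change of -0.050 (SE 0.17, edgeR adjusted p = 0.844). The 95% interval from -0.41 to 0.31 excludes, with TMM scaling, only a fall of more than 1.33-fold and a rise of more than 1.24-fold. Smaller changes of this arm are not excluded.

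The intervals of the major products were among the narrowest in these libraries. Of the 480 tested miRNAs, 1 had a smaller SE of the log2 fold change than miR-182-5p, 7 a smaller one than miR-183-5p and 57 a smaller one than miR-96-5p. The median width of the 95% interval over all tested miRNAs was 0.60 on the log2 scale, against 0.26 for miR-182-5p, 0.27 for miR-183-5p, 0.33 for miR-96-5p and 0.72 for miR-183-3p. The smallest change called among all tested miRNAs had a size of 0.16 on the log2 scale, and the median size of all changes was 0.29. The estimates for all 4 members were smaller than both, between -0.10 for miR-96-5p and 0.063 for miR-183-5p.

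**Figure D2:**
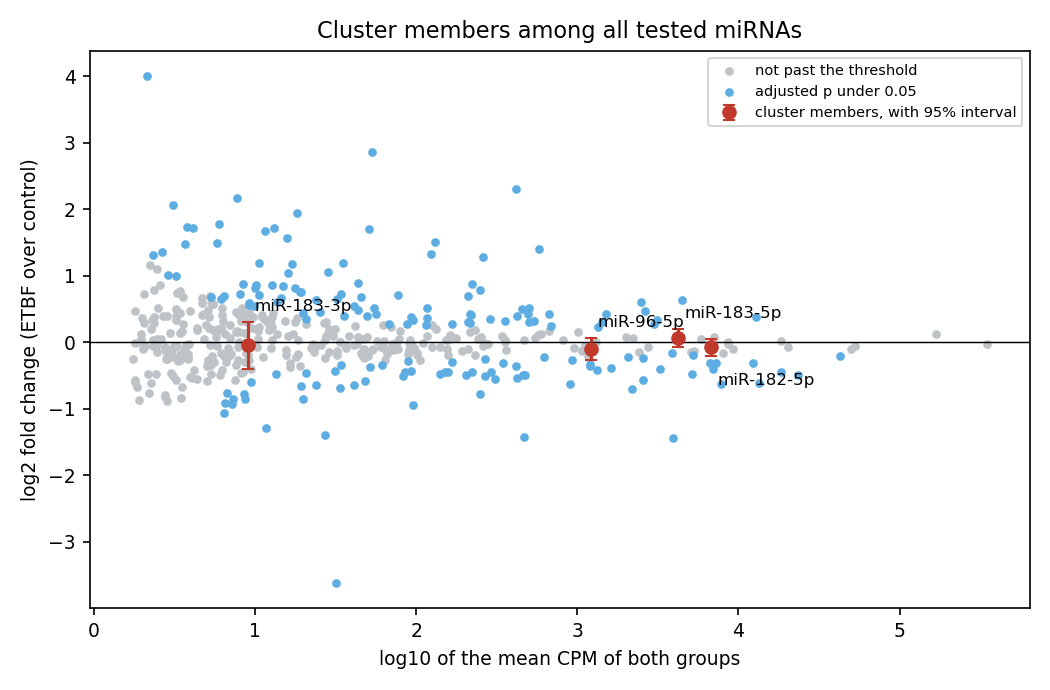
Log2 fold change of ETBF over control (vertical axis) against log10 of the mean CPM of both groups (horizontal axis) for the 480 tested miRNAs. Red points are the 4 cluster members with their 95% intervals, all of which cross 0; blue points passed the edgeR threshold and grey points did not.

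For the 3 major products, the lowest bounds of all alternatives came with upper-quartile scaling and the highest with total-count scaling. With upper-quartile scaling the log2 fold change was -0.16 for miR-182-5p (95% interval -0.32 to -0.010) and -0.18 for miR-96-5p (-0.35 to -0.012). Both then had an unadjusted p of 0.0375 and neither passed after adjustment (edgeR adjusted p = 0.0924 each). With total-count scaling the values were -0.022 for miR-182-5p, -0.043 for miR-96-5p and 0.12 for miR-183-5p (95% interval -0.016 to 0.25, edgeR adjusted p = 0.172). MiR-183-5p took 0.452%, 0.430%, 0.429% and 0.441% of the counts of ETBF replicates 1 to 4, against 0.379%, 0.406%, 0.420% and 0.409% in control replicates 1 to 4, so as a share of all counts its groups did not overlap. How many of all tested miRNAs did not overlap on that scale was not counted. With total-count scaling 64.2% of all 480 had a higher estimate with ETBF, against 57.6% with TMM. Over the 19 alternatives, the widest bounds allowed a fall of miR-182-5p by up to 1.246-fold and a rise by up to 1.08-fold. The corresponding bounds were 1.13-fold lower and 1.19-fold higher for miR-183-5p, and 1.28-fold lower and 1.10-fold higher for miR-96-5p. MiR-183-3p, which was left out by the minimum count of 50, had bounds of 1.44-fold lower and 1.35-fold higher over the other 18.

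**Figure D3:**
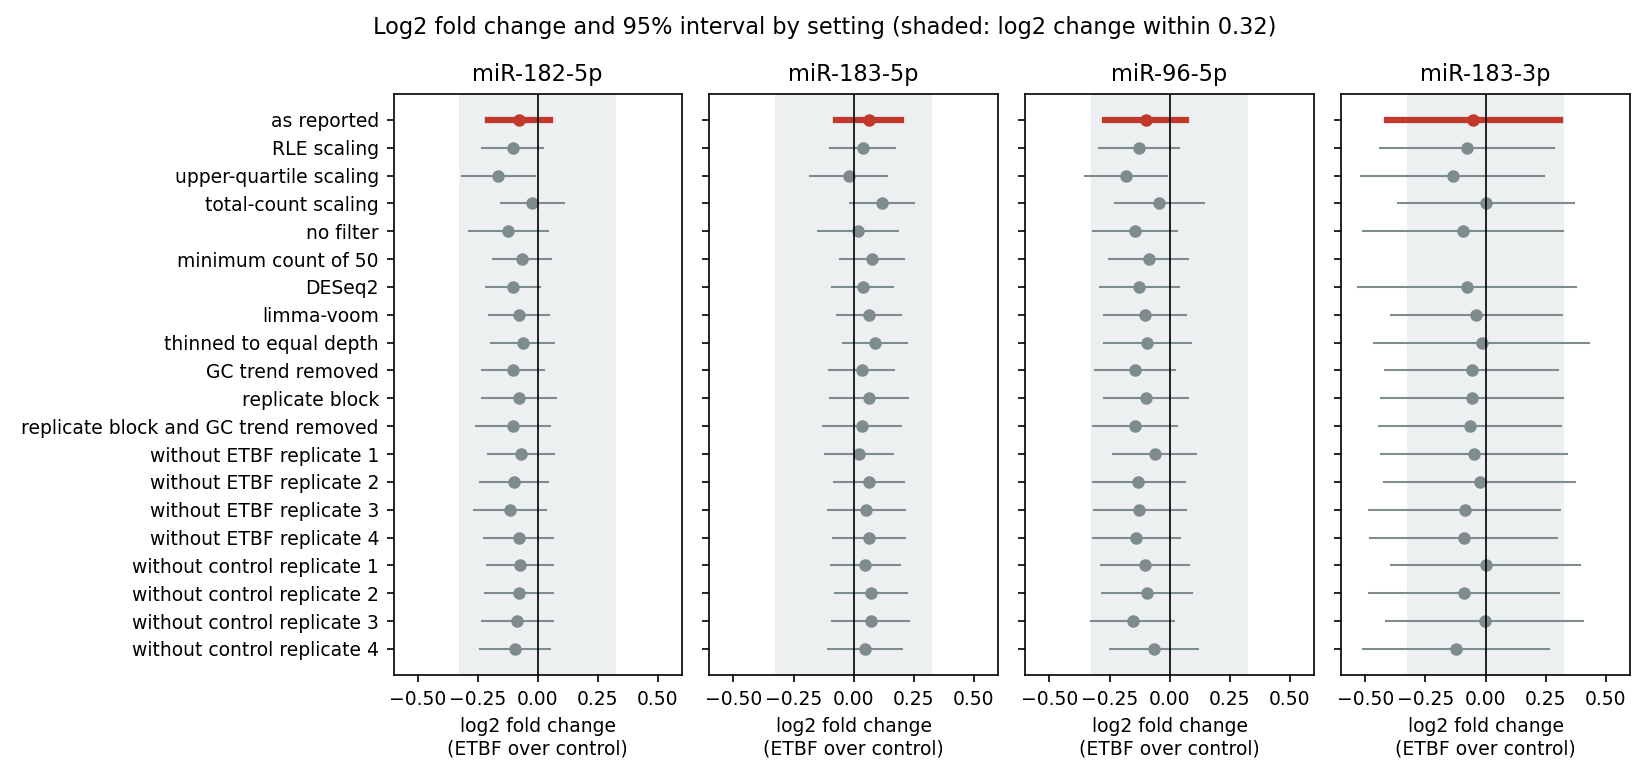
Log2 fold change of ETBF over control (horizontal axis) with its 95% interval for each member, as reported (red) and under each alternative (grey); the shaded band is a log2 change of 0.32 in each direction. The intervals of the 3 abundant members lie within the band as reported, and that of miR-96-5p passes its lower edge with upper-quartile scaling, at -0.35, and without control replicate 3, at -0.33.

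As a whole the cluster summed to 11902, 11813, 12359 and 12109 CPM in ETBF replicates 1 to 4 and to 12227, 12790, 12174 and 12051 CPM in control replicates 1 to 4. These overlapping sums averaged 12046 ± 243 CPM in ETBF libraries and 12310 ± 328 CPM in control libraries (SD, n = 4 each). Within the cluster, miR-182-5p made up 54.4% ± 1.32 of the summed counts with ETBF and 56.2% ± 0.653 in controls. MiR-183-5p made up 35.7% ± 1.82 in ETBF libraries and 33.4% ± 0.805 in controls, and miR-96-5p 9.79% ± 0.697 in ETBF libraries and 10.3% ± 0.812 in controls. The order miR-182-5p, miR-183-5p, miR-96-5p and miR-183-3p was the same in all 8 libraries, with no overlap between neighbours. Read counts of different sequences were not calibrated to molecules, so the order is one of counts.

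A ratio of 2 members within a library does not depend on the scaling between libraries, so the 6 pairs were compared by their log2 ratio of counts. The ratio of miR-182-5p to miR-183-5p was 1.37, 1.60, 1.61 and 1.53 in ETBF replicates 1 to 4, against 1.76, 1.65, 1.64 and 1.68 in control replicates 1 to 4. All 4 ETBF libraries lay below all 4 controls, and ETBF replicate 1 was the lowest. The mean log2 ratio was 0.61 ± 0.11 in ETBF libraries and 0.75 ± 0.044 in control libraries (SD, n = 4 each), a difference of -0.14. The two-sided exact permutation test gave p = 0.0286, the smallest that 4 libraries against 4 allow, and an adjusted p of 0.171 over the 6 pairs, which is also the lowest that 1 ratio alone at that smallest p can reach. The differences that this test does not reject, an interval at a level of 97.1%, ran from -0.35 to -0.027. Without ETBF replicate 1 the difference was -0.091 (exact permutation p = 0.0286, adjusted p = 0.171). Without any 1 control it was -0.15 to -0.12, with an exact permutation p of 0.0857 and an interval that crossed 0 each time (without control replicate 1, -0.47 to 0.056, adjusted p = 0.514).

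The other 5 ratios overlapped between the groups. The log2 ratio of miR-182-5p to miR-96-5p, the pair with FOXO targets in common, was 2.48 ± 0.088 in ETBF libraries and 2.46 ± 0.12 in control libraries (SD, n = 4 each). The difference of 0.021 had an exact permutation p of 0.771 and an interval from -0.23 to 0.27. For miR-183-5p to miR-96-5p, which lie side by side, the difference was 0.16 (exact permutation p = 0.229, interval -0.13 to 0.57). The 3 ratios with miR-183-3p differed by -0.064 to 0.099, with exact permutation p-values of 0.371 to 0.743 and intervals between -0.49 and 0.43.

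**Figure D4:**
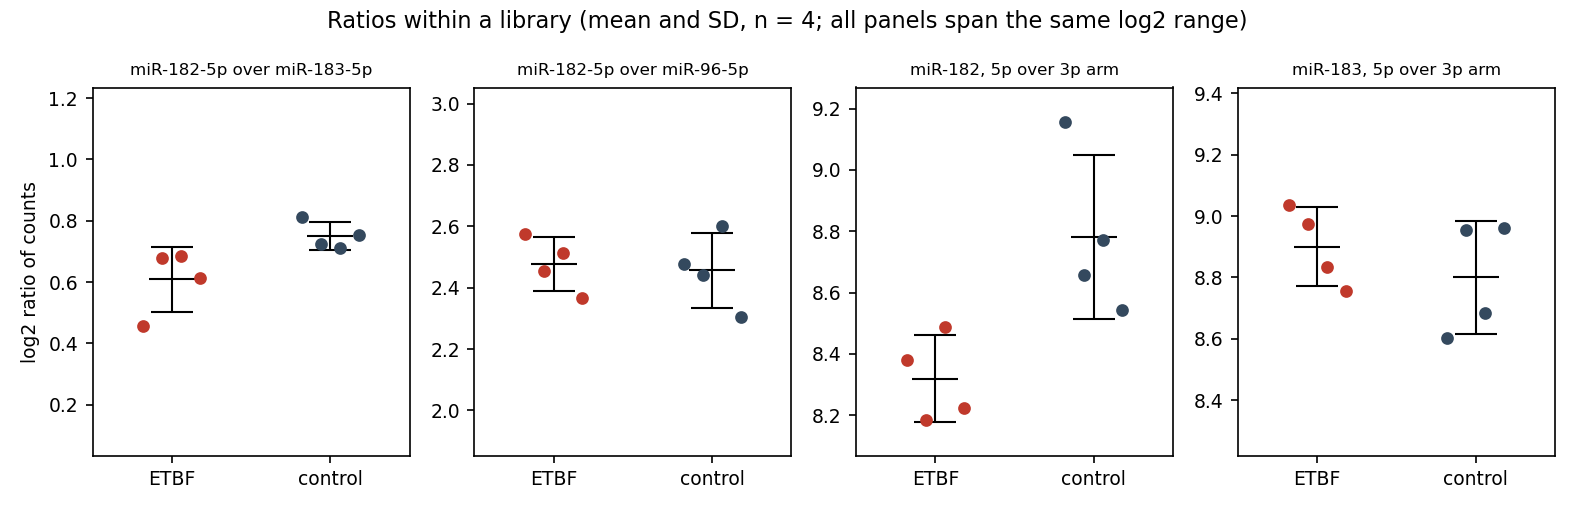
Log2 ratios of counts within each library (vertical axes, the same span in each panel) for 2 pairs of members and for the 5p and 3p arms of miR-182 and miR-183; points are libraries, with ETBF left of control, and marks and bars are means and SD. The miR-182-5p to miR-183-5p ratio and the miR-182 arm ratio show no overlap between groups, with ETBF lower in both; the other panels overlap.

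The arms of a hairpin are cut from it together, and the rarer one is mostly degraded. For miR-183 there were 525, 503, 456 and 432 reads of the 5p arm per read of the 3p arm in ETBF replicates 1 to 4 and 389, 496, 411 and 499 in control replicates 1 to 4. The log2 arm ratio differed by 0.099, with a 95% interval from -0.21 to 0.41 (limma adjusted p = 0.605 over the 118 hairpins with both arms tested, of which 32.2% passed). For miR-182 the 5p to 3p ratio was 334, 291, 359 and 299 in ETBF replicates 1 to 4, against 571, 404, 437 and 373 in control replicates 1 to 4, without overlap. The log2 arm ratio was 8.32 ± 0.14 in ETBF libraries and 8.78 ± 0.27 in control libraries (SD, n = 4 each), a difference of -0.46 with a 95% interval from -0.82 to -0.10. Of the 38 hairpins that passed, 24 had a lower and 14 a higher 5p to 3p ratio with ETBF. How many of the 118 did not overlap between the groups was not counted. The difference for miR-182 had an unadjusted p of 0.0174, at rank 39, and just missed the threshold (limma adjusted p = 0.0522). At equal depth the difference was -0.55 (limma adjusted p = 0.0593), and without control replicate 4 it passed at -0.54 (limma adjusted p = 0.0404). Without control replicate 1 it was -0.34 (limma adjusted p = 0.103), without ETBF replicate 2 -0.42 (limma adjusted p = 0.132) and without ETBF replicate 4 -0.43 (limma adjusted p = 0.124).

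Neither of the other arms of the cluster is among the 4 members, and they are given with their values as the partners of miR-182-5p and miR-96-5p.
hsa-miR-182-3p: uGGUUCUAgacuugccaacua
hsa-miR-96-3p: aAUCAUGUgcagugccaauaug
MiR-182-3p had 87, 95, 74 and 58 counts in ETBF replicates 1 to 4 and 61, 100, 82 and 120 counts in control replicates 1 to 4. Relative to depth these were 18.7 to 22.3 CPM with ETBF, against 12.1 to 17.9 CPM in controls, without overlap. Its log2 fold change was 0.36 (SE 0.14, edgeR adjusted p = 0.0643), which did not pass. It passed in 5 of 19 alternatives, among them total-count scaling (0.41, edgeR adjusted p = 0.0472) and the minimum count of 50 (0.37, edgeR adjusted p = 0.0478). With that minimum count 294 miRNAs were tested, and its unadjusted edgeR p was 0.0234, against 0.0235 as reported. MiR-96-3p had 8, 13, 10 and 7 counts in ETBF replicates 1 to 4 and 5, 5, 6 and 8 counts in control replicates 1 to 4, or 1.72 to 3.05 CPM in ETBF libraries and 0.881 to 1.19 CPM in controls. It did not pass the filter, and in the fit without a filter its log2 fold change was 1.16 (edgeR adjusted p = 0.0913).

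The miRNA that shares the seed of miR-96-5p, miR-1271-5p from chromosome 5, was close to absent.
hsa-miR-1271-5p: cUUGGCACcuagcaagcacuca
It had 3, 0, 2 and 1 counts in ETBF replicates 1 to 4 and 1, 1, 1 and 2 in control replicates 1 to 4, and was not tested. The count of 0 in ETBF replicate 2 allows up to 0.743 CPM of the library total, for counting error only. Over the 4 libraries of a group, miR-1271-5p had 6 counts with ETBF and 5 in controls, where miR-96-5p had 18056 counts with ETBF and 28818 in controls.

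Of 16 other miRNAs often raised in colorectal tumours, all tested, 8 were called higher with ETBF, 3 lower and 5 did not pass (edgeR), where 19.8% of all 480 were called higher, 14.6% lower and 34.4% in either direction. Their median log2 fold change was 0.30, against 0.013 for all 480. Of the list, miR-17-5p, miR-18a-5p, miR-19a-3p, miR-19b-3p, miR-20a-5p, miR-92a-3p, miR-106a-5p, miR-25-3p, miR-93-5p and miR-106b-5p come from the miR-17-92 cluster or related clusters. All higher calls except miR-31-5p were among these. Of the rest, miR-135b-5p, miR-222-3p and miR-224-5p were called lower, and miR-21-5p and miR-221-3p did not pass. MiR-20a-5p, a growth-promoting product of the miR-17-92 cluster, averaged 5456 ± 223 CPM in ETBF libraries and 3520 ± 318 CPM in control libraries (SD, n = 4 each), with a log2 fold change of 0.63 (edgeR adjusted p = 5.88e-06). MiR-31-5p was at 3467 ± 432 CPM in ETBF libraries and 2746 ± 311 CPM in controls (0.34, edgeR adjusted p = 0.0119), a call lost with upper-quartile scaling (edgeR adjusted p = 0.0621) and without ETBF replicate 1 or 2 (edgeR adjusted p = 0.0516 and 0.0798). MiR-222-3p, a repressor of the cell cycle inhibitor CDKN1B, fell to 6134 ± 318 CPM with ETBF, against 9480 ± 549 CPM in controls (-0.63, edgeR adjusted p = 2.94e-06). MiR-135b-5p, which represses the tumour suppressor APC, was at 347 ± 17.7 CPM in ETBF libraries and 504 ± 47.8 CPM in controls (-0.54, edgeR adjusted p = 0.000109). The list and the cluster were chosen with results of these data known, and whether the cluster differs from the list was not tested.

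Among 142 other tested miRNAs of at least 100 CPM on average, those whose level kept the most constant log2 difference from the summed cluster over the 8 libraries were let-7e-5p, let-7i-5p, miR-98-5p, let-7g-5p and miR-23a-3p. The SD of that difference was 0.049 for let-7e-5p, 0.057 for let-7i-5p, 0.060 for miR-98-5p, 0.065 for let-7g-5p and 0.072 for miR-23a-3p, against a median of 0.18 over the 142. By the same measure, with the member itself inside the sum, miR-182-5p had an SD of 0.036, miR-183-5p 0.073, miR-96-5p 0.11 and miR-183-3p 0.14. Of these 5 miRNAs, 4 belong to the let-7 family, including miR-98-5p. The summed cluster itself varied little, at 13.53 to 13.59 in log2 CPM with ETBF and 13.56 to 13.64 in controls. A small SD therefore also marks any abundant miRNA of steady level, and shared variation was not tested.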

How the data were processed

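The authors deposited 1 table per library with the raw count of reads for each mature miRNA. Per the submitters' processing notes, Trimmomatic, FastQC and featureCounts were used with GRCh37.p5; which aligner, versions, annotation release and strandedness they used is not given in the sources used here. Samples were grouped by title. The labels do not say that replicates were separate cultures. The p-values set a group difference only against the spread between samples, which may reflect technical variation alone. No libraries of 1 group agreed within sampling noise, as the chi-square over its degrees of freedom was 22.5 to 139.

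The counts of the 4 members were not all multiples of a whole number. Each member was placed at a single position, so multiplication by hairpin copies could not have shown in its counts. Whether the counts of miRNAs with several hairpin copies were multiplied was not tested. Fold changes came from the quasi-likelihood test of edgeR 4.0.16 in R 4.3.3, with TMM factors, a 2-group design and the default filter at a minimum count of 10, which kept 480 miRNAs holding at least 99.9% of every library. P-values are two-sided, and those of edgeR as reported are adjusted over all 480. Each alternative was adjusted over the miRNAs it tested, 294 with the minimum count of 50 and 1496 without a filter. The 95% interval holds the changes that this test does not reject at 0.05, found by shifting the offset, and the SE is its half-width divided by the t quantile. Ratios had 0.5 added to each count. The intervals of the ratios between members come from the exact permutation test and have a level of 97.1%. Arm ratios used limma 3.58.1, and DESeq2 1.42.0 was an alternative. Intervals cover the spread between libraries; a count of 0 allows 3 counts.

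Members and lists were chosen with earlier results of these data known. The miRNAs named were the members, the other arms of their hairpins and names sharing a seed. Also named were the 5 with the most constant difference from the summed cluster and, from the colorectal list, the 2 most abundant called in each direction. Those ranked 1 to 8 in abundance were named for the bound on the interval. Sequences are RefSeq's on GRCh38.p14, a build other than the authors', and were matched by name for 2260 of the 2575 names. The test was checked on simulated data. The arm ratio of miR-182 was not among the planned results. Its alternatives, and those for miR-182-3p and for the 4 colorectal miRNAs, were chosen after seeing the data.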

Additional observations from a re-analysis of the deposited data

Results flagged for a closer look

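Of 48 groups of 4 values checked for a library far from the others, 1 had such a value, where chance gives about 1 in 20. MiR-23a-3p was among the miRNAs with the most constant log2 difference from the summed cluster. It was at 1214 CPM in control replicate 3, below the next control at 1324.5 CPM. None of the 4 members, their ratios, the arm ratios or the summed cluster had such a value in either group.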

How the results depend on the processing

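The 4 members stayed short of the threshold in all alternatives run: 19 each for miR-182-5p, miR-183-5p and miR-96-5p, and 18 for miR-183-3p, which the minimum count of 50 left untested. The lowest edgeR adjusted p of any of them was 0.0924. The sign turned for miR-183-5p with upper-quartile scaling (-0.021) and for miR-183-3p with total-count scaling (0.0029). Leaving out 1 library gave log2 fold changes of 0.021 to 0.073 for miR-183-5p, -0.12 to 0.00076 for miR-183-3p, -0.15 to -0.062 for miR-96-5p and -0.12 to -0.070 for miR-182-5p. The log2 difference of the summed cluster was -0.031 as reported, -0.12 with upper-quartile scaling, 0.024 with total-count scaling and -0.075 without a filter, and the cause was not tested. Among the ratios, leaving out 1 library gave -0.030 to 0.069 for miR-182-5p to miR-96-5p, -0.094 to 0.012 for miR-182-5p to miR-183-3p, -0.16 to 0.042 for miR-96-5p to miR-183-3p, 0.079 (without ETBF replicate 1) to 0.22 for miR-183-5p to miR-96-5p, 0.033 (without control replicate 1) to 0.15 for miR-183-5p to miR-183-3p, and -0.17 to -0.091 for miR-182-5p to miR-183-5p. With the replicate block the last ratio had an exact permutation p of 0.125. The arm ratio of miR-182 lay between -0.54 and -0.34, with limma adjusted p-values of 0.0404 to 0.132 when 1 library was left out, and it passed without control replicate 4. Removing the GC trend moved miR-96-5p to -0.14, miR-182-5p to -0.10, miR-183-5p to 0.034 and miR-183-3p to -0.058. The counts showed no pairing by replicate number: same-numbered deviations correlated at -0.0584 to 0.0608, and 0 of 4 ETBF libraries matched their own number best. The labels do not say whether the libraries were paired, and these values cannot settle how the cultures were set up. With the replicate block the log2 fold change was -0.079 for miR-182-5p, 0.063 for miR-183-5p, -0.099 for miR-96-5p and -0.055 for miR-183-3p; 159 miRNAs passed, against 165 without it, and miR-182-3p passed at 0.38 (edgeR adjusted p = 0.0373). Over all alternatives 143 to 168 miRNAs passed, where 294 to 1496 were tested. At these depths miR-183-3p, miR-96-3p and miR-1271-5p had at most 53 counts in any library.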
